A study of Mus musculus with 2 samples.

Results

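HOX cluster genes are the homeobox genes of the HOXA, HOXB, HOXC and HOXD gene clusters. They were taken as every listed gene whose symbol is Hoxa, Hoxb, Hoxc or Hoxd followed by digits alone, which gave 39 symbols among 31053 listed gene rows: 11 in HOXA, 10 in HOXB, 9 in HOXC and 9 in HOXD. Their RNA was read in a single-cell library of lung epithelial cells, purified by flow cytometry from mouse embryos of embryonic day 15 whose genotype is labelled control, and made with a droplet kit that counts the 3′ ends of RNA. The series' other library comes from the same tissue and age and carries knockouts of LEF/TCF transcription factors, the DNA-binding factors at the end of the canonical Wnt pathway; its gene expression was not analysed here. The labels name neither a strain, nor alleles, nor the number of embryos behind a library. With 1 library per genotype there was no replicate of any condition, and cells of 1 library are not replicates, so no test was made. Every interval below is a 95% interval that covers counting error only.

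HOX genes encode transcription factors with a homeodomain, a DNA-binding domain that they share with their cofactors of the PBX, MEIS and PKNOX families (the TALE cofactors). Within a cluster the genes lie in order of their paralog number, and low numbers are expressed further forward along the body axis than high numbers. Retinoic acid and CDX factors are known to switch the clusters on, Trithorax proteins to keep them active, and Polycomb proteins to keep them silent. In the embryonic lung, genes of the middle paralog groups are known chiefly from the mesenchyme, where Hoxa5 and Hoxb5 take part in airway branching and tracheal development.

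After removal of cells with under 1000 genes or over 10% mitochondrial UMIs (unique molecular identifiers, which count RNA molecules), 3457 of 3568 barcodes and 53639813 UMIs remained, with a median of 12826 UMIs and 3049 genes per cell. The 2 libraries shared 29 barcodes. Clusters were made without the HOX genes and without cell-cycle genes, and were named from marker lists. The distal progenitor-like class held 1430 cells in 3 clusters. None of these 3 had a distal marker at 2-fold over all other cells; they were named by at least 3 distal markers at 1.5-fold over the airway cluster, and the smallest of them, of 153 cells, had no distal marker among its 10 leading genes. The 8 distal markers summed to 3334 CPM there, to 1067 CPM in the airway class and to 4217 CPM in the alveolar type 2-like class, so that they set the distal class apart from the airway class and not from the alveolar type 2-like class. The airway-like class held 786 cells, the alveolar type 2-like class 552 cells and the neuroendocrine-like class 36 cells. The alveolar type 2-like name rests on Sftpb, Sftpa1 and Lamp3 at 2-fold over all other cells. Of its other markers, Sftpd, Slc34a2 and Lyz1 had 1 UMI each there. Abca3 was at 8.52 CPM there against 9.04 CPM in the distal class. The same cluster held the distal markers Etv4 and Bmp4 at 2-fold, so its name is a loose one. A further cluster of 581 cells was led by Cym, Smoc2 and Ager. It held Ager at 101 CPM (UMIs per 1000000 UMIs of the class) against 50.7 CPM in the distal class, but Ager was the only alveolar type 1 marker of 8 at 2-fold or more over all other cells, and Aqp5 was at 0, so it is called Ager-leading and given no cell type name. Cells with no Epcam UMI and at least 1 Col1a1 UMI were taken out first as a class of their own, 34 cells with a median of 6936.5 UMIs.

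That Epcam-zero Col1a1-positive class carried mesenchymal markers and few epithelial ones. All 9 mesenchymal markers had UMIs in it, with Tcf21 at 128 CPM and Tbx5 at 71.3 CPM, both at 0 UMIs in the distal and airway classes. The 9 markers summed to 1765 CPM there, to 1.5 CPM in the distal class and to 18.5 CPM in the airway class. The 5 epithelial markers summed to 85.6 CPM there and to 1764 CPM over all epithelial clusters. Nkx2-1, at 16 UMIs, made up most of the former. Col1a1, at 346 CPM in these cells, counts among the 9, and Epcam, at 770 CPM over the epithelium, among the 5. Both were used to define the class, so their part in these sums was fixed in advance. The 8 distal markers all had UMIs in these cells, 139 in sum, of which 70 were Id2. They summed to 496 CPM there and to 2896 CPM over all epithelial clusters. Alveolar type 1 markers summed to 82.0 CPM there and to 145 CPM over those clusters. Mesothelial, endothelial, neural and airway markers were at 0 in these cells, and 32 of the 34 lay in a mesenchymal-like cluster of 42 cells. They were in the library although the labels describe epithelial cells.

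Promoter sequences of 3 members are shown because these genes were among the HOX genes that stood high together in the Col1a1-positive cells and low in the distal class. The 3 are a selection. Hoxa4, Hoxb2, Hoxb3, Hoxb5, Hoxb6, Hoxb7 and Hoxc5 had no promoter in the RefSeq promoter table. Hoxa3, Hoxa7, Hoxb8 and Hoxc4, which also had UMIs in the Col1a1-positive cells, had a promoter there and are not shown. Each run is the 250 bases before the gene's start in the RefSeq promoter table (GRCm38.p6), written 5′ to 3′ on the gene's strand: chr6:52164832-52165081 (minus strand) for Hoxa2, chr6:52204588-52204837 (minus strand) for Hoxa5 and chr11:96318017-96318266 (plus strand) for Hoxb4. Capitals mark matches on either strand to TGATNNAT (a HOX and PBX composite site), TGACAG (a MEIS site), AGGTCA (a nuclear receptor half-site), TATAAA (the TATA box) and CCAAT (the CCAAT box). No motif contains another.
Hoxa2: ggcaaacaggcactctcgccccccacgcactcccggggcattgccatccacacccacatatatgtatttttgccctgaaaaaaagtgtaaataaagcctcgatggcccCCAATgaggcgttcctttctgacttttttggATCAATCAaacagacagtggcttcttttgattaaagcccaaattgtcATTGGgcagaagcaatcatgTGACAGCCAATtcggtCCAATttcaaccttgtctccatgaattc
Hoxa5: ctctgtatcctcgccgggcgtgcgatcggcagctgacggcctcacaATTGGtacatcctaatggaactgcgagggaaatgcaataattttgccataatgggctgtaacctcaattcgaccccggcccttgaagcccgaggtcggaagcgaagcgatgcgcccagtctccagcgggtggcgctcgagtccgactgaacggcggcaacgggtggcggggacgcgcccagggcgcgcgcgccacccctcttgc
Hoxb4: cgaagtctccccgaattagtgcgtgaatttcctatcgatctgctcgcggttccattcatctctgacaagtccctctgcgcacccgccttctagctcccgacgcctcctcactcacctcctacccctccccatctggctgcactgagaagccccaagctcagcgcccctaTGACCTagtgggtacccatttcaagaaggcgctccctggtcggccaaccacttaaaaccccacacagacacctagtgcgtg
Hoxa2 held 1 match to TGATNNAT, 1 to TGACAG and 4 to CCAAT, Hoxa5 held 1 match to CCAAT, and Hoxb4 held 1 match to AGGTCA. Over 32851 promoter windows of the same length, TGATNNAT was found in 7.68%, TGACAG in 15.9%, AGGTCA in 14%, TATAAA in 12.4% and CCAAT in 33.8%. Among the 22 HOX genes with a promoter in the table, 4 held TGATNNAT, 2 held TGACAG, 6 held AGGTCA, 4 held TATAAA and 14 held CCAAT. A match describes letters in a window and says nothing of binding.

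HOX RNA was scarce and came almost wholly from the HOXB cluster in the epithelium, and from HOXA and HOXB in the Col1a1-positive cells. Over all kept cells 17 of the 39 genes had at least 1 UMI and 22 had none, with 670 HOX UMIs in all. At this depth a gene with no UMI may still stand at up to 0.0559 CPM, the level of 3 counts. No HOXD gene and no gene of paralog number 10 to 13 had a UMI in any class. Detected genes numbered 6 of 11 in HOXA, 9 of 10 in HOXB and 2 of 9 in HOXC. A 3′ count takes each molecule once whatever its length, but 3′ ends may be caught unequally, so orders between genes are orders of UMIs.

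**Figure D1:**
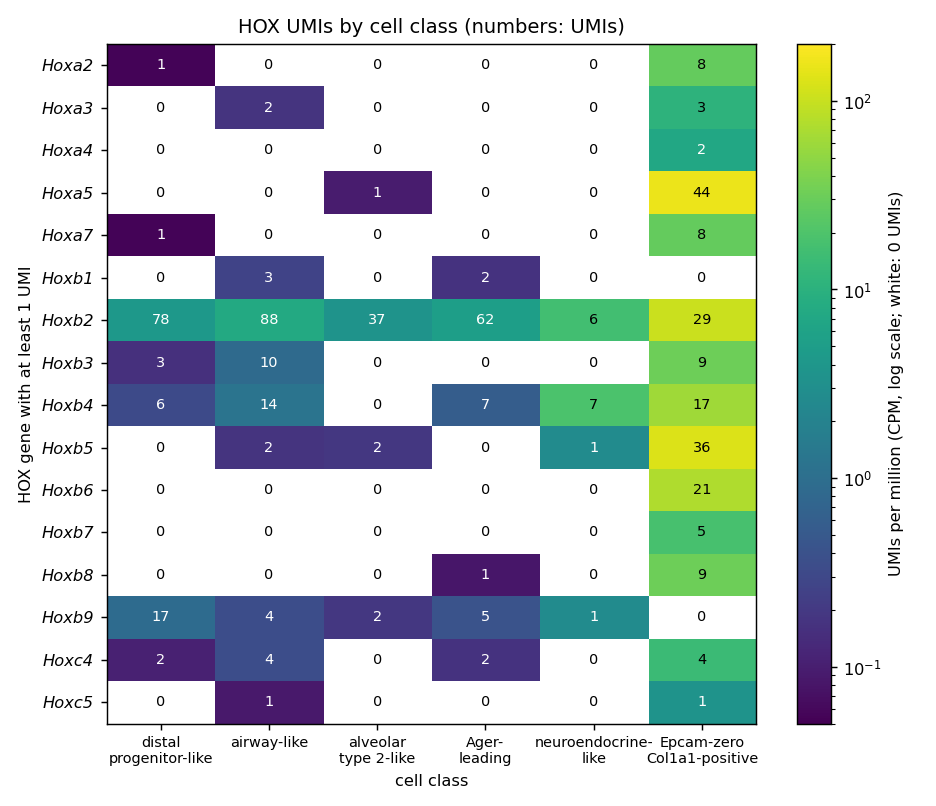
UMIs of HOX genes with at least 1 UMI (rows) in 6 cell classes (columns), coloured by CPM on a log scale and white where no UMI was found. Hoxb2 has UMIs in all 6 classes, while Hoxa5, Hoxb5 and Hoxb6 stand high in the Epcam-zero Col1a1-positive cells.

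In the epithelium, Hoxb2, a gene known from hindbrain patterning, supplied most of the HOX signal. All epithelial clusters together (3413 cells) held 376 HOX UMIs, or 7.06 CPM (6.37 to 7.81), and 273 of these were Hoxb2. The next genes were Hoxb4 with 34 UMIs and Hoxb9 with 29, then Hoxb3 with 13 and Hoxc4 with 8. Hoxb1 and Hoxb5 had 5 UMIs each, Hoxa3 had 2, and Hoxa2, Hoxa5, Hoxa7, Hoxb8 and Hoxc5 had 1 each. Hoxa4, Hoxb6 and Hoxb7 had UMIs elsewhere but none in the epithelium. HOXB made up 95.7% of epithelial HOX UMIs (93.2% to 97.5%), HOXA 1.86% and HOXC 2.39%.

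By paralog number, group 2 took 72.9% of the epithelial HOX UMIs (68.1% to 77.3%), group 4 took 11.2% and group 9 took 7.71%. Group 5, which took 41.3% of the HOX UMIs of the Col1a1-positive cells (34.4% to 48.6%), took 1.86% in the epithelium (0.752% to 3.8%). The share of group 2 was 73.1% in the distal class (63.8% to 81.2%), 67.7% in the airway class (58.9% to 75.6%), 88.1% in the alveolar type 2-like class (74.4% to 96.0%) and 78.5% in the Ager-leading class (67.8% to 86.9%). In each of these 4 classes group 2 held most HOX UMIs, and their intervals overlap.

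**Figure D2:**
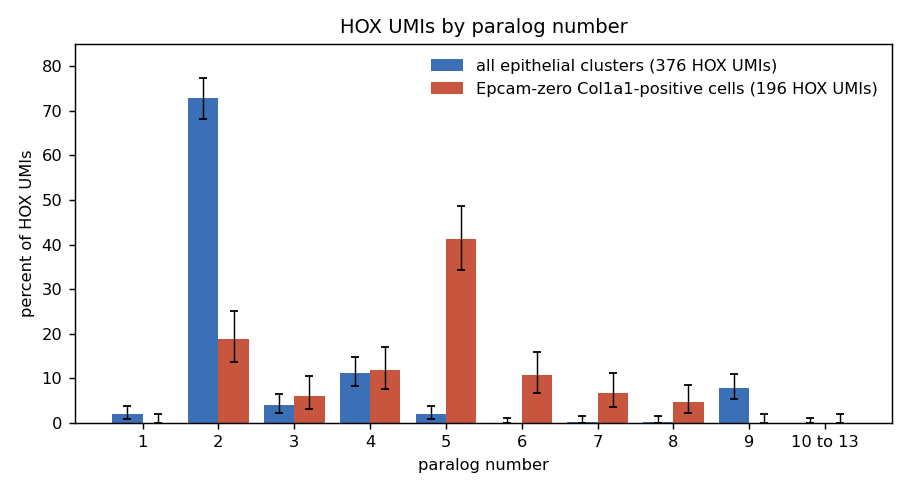
Percent of HOX UMIs (y axis) by paralog number (x axis) in all epithelial clusters (376 HOX UMIs) and in the Epcam-zero Col1a1-positive cells (196 HOX UMIs), with exact binomial intervals of 95%. Group 2 holds 72.9% of the epithelial UMIs, and group 5 holds 41.3% of those of the Col1a1-positive cells.

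Hoxb2 (ENSMUSG00000075588, chr11:96350525-96354012, plus strand, in GENCODE M21 on GRCm38) was at 7.70 CPM in the airway class (88 UMIs, 6.17 to 9.48). It was at 4.17 CPM in the distal class (78 UMIs, 3.30 to 5.20), at 3.5 CPM in the alveolar type 2-like class (37 UMIs, 2.47 to 4.83) and at 5.20 CPM in the Ager-leading class (62 UMIs, 3.98 to 6.66). The airway class was thus the highest of the 4, and the Ager-leading class lay between by its point value. Neither the Ager-leading nor the alveolar type 2-like class was separable from the distal class. Within the distal class its 3 clusters held 4.53, 3.51 and 4.66 CPM, and the lowest of these was the cluster led by the cell-cycle genes Ube2c and Cenpf. No cell of the airway class held more than 2 Hoxb2 UMIs, and no cell of the distal class more than 4.

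For ratios between classes, genes entered with at least 50 UMIs over both classes and were counted as past the fold at 1.5 or more in either direction. Hoxb2 was the only HOX gene to enter between epithelial classes. Its distal-to-airway ratio was 0.542 (0.394 to 0.743), a log2 ratio of -0.88 (-1.34 to -0.43), past the fold and lower. Of all 10964 genes that entered, 17.4% were past the fold and lower, and 5.07% past it and higher. The median log2 ratio of those genes was -0.18, and relative to it Hoxb2 stood at -0.70. The alveolar type 2-like class was lower than the airway class too, with a log2 ratio of -1.14 (-1.73 to -0.57), where 19.8% of 10471 genes were past the fold in that direction. The Ager-leading class stood at -0.57 against the airway class (-1.06 to -0.08), which is within the fold, where 11.4% of 10614 genes were past it and lower. Neither the alveolar type 2-like nor the Ager-leading class passed the fold against the distal class, with log2 ratios of -0.25 (-0.86 to 0.33) and 0.32 (-0.19 to 0.82), respectively. In those comparisons 16.4% and 12.6% of genes, respectively, passed it in either direction.

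Several other features differed between the distal and airway classes, and their part in the Hoxb2 ratio was tested only by the exclusions given here. Decorin (Dcn), on the mesenchymal list, was at 17.2 CPM there and at 0.535 CPM in the distal class, and had UMIs in 141 of 786 airway cells. The other 8 mesenchymal markers were at 0.525 CPM or less in the airway class, with Col3a1, Postn, Tbx4, Tbx5 and Tcf21 at 0. The platelet gene Pf4, on the blood list, was at 47.3 CPM in the distal class and 0.350 CPM in the airway class. Cells with 4 or more Xist UMIs and a Y-linked UMI, which can mark 2 embryos' RNA under 1 barcode, were 11.5% of the airway class, 4.06% of the distal class and 12.9% of the Ager-leading class. The Hoxb2 ratio of distal to airway was 0.550 without the airway cells that had a Dcn UMI. It lay between 0.378 and 0.550 over all 13 alternatives, which include leaving out the Xist and Y-linked cells.

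The share of cells with a Hoxb2 UMI was compared after thinning every cell to 5000 UMIs, which left out 37 distal and 41 airway cells. It was 3.89% in the airway class (29 of 745 cells, 2.62% to 5.54%), 2.15% in the distal class (30 of 1393, 1.46% to 3.06%), 2.59% in the Ager-leading class (15 of 579, 1.46% to 4.24%) and 0.906% in the alveolar type 2-like class (5 of 552, 0.295% to 2.10%). A repeat of the thinning with another seed gave 3.36%, 1.65%, 2.25% and 1.81% in the same order of classes, so the order of the distal and alveolar type 2-like classes turned between the draws. Without thinning these shares were 10.3%, 4.76%, 9.29% and 5.80%, at median depths of 10495, 11145, 15853 and 16451 UMIs. Col1a1 had UMIs in 4 of 3325 thinned epithelial cells (0.120%), and Hoxb2 in 82 of them (2.47%). Cells with Col1a1 and no Epcam UMI had been taken out of the epithelium by rule, which lowers the Col1a1 share. That share therefore sets no floor for Hoxb2. Hoxa5 had UMIs in 0 of those 3325 cells in both draws, and Hoxb5 in 0 in the first and 2 in the second; without thinning, Hoxa5 had UMIs in 1 of 3413 epithelial cells and Hoxb5 in 5. The HOX genes of the Col1a1-positive cells were in another proportion: among the UMIs of Hoxb2, Hoxa5 and Hoxb5 together, Hoxb2 took 26.6% in those cells (18.6% to 35.9%) and 97.8% in the epithelium (95.4% to 99.2%).

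Hoxb4 (chr11:96318267-96321638, plus strand), known for its effect on blood stem cell renewal, was at 1.22 CPM in the airway class (14 UMIs, 0.670 to 2.05) and at 0.321 CPM in the distal class (6 UMIs, 0.118 to 0.698). It was at 0.587 CPM in the Ager-leading class (7 UMIs) and at 0 UMIs in the alveolar type 2-like class, which allows up to 0.284 CPM. Hoxb4 did not have the UMIs to enter the comparison; its distal-to-airway ratio of 0.262 had an interval of 0.0825 to 0.726. The point values of Hoxb4 thus had the same order as those of Hoxb2 between these classes, on far fewer molecules.

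Hoxb3 and Hoxb9 are described because of their values and fall outside the rule for naming genes. Hoxb3, the 5′ neighbour of Hoxb2 in the cluster, had 10 UMIs in the airway class, each in a different cell, 3 in the distal class and none in the alveolar type 2-like and Ager-leading classes. All 10 airway cells with Hoxb3 also had a Sox2 UMI, where 66.9% of airway cells had one; their median depth was 18092 UMIs. Hoxb2 was found in 1 of these 10 cells, beside 10.3% of the airway class. Hoxb9 was, among HOX genes with more than 1 UMI in the distal class, the only one higher there than in the airway, alveolar type 2-like and Ager-leading classes, at 0.909 CPM (17 UMIs, 0.529 to 1.46) against 0.350 CPM in the airway class (4 UMIs), 0.189 CPM in the alveolar type 2-like class and 0.419 CPM in the Ager-leading class. Its distal-to-airway ratio of 2.60 had an interval of 0.847 to 10.6, and with classes taken from Sox9 and Sox2 UMIs alone the ratio was 0.981, so no direction can be read for Hoxb9. Of 26 epithelial cells with Hoxb9, 2 also had Hoxb2, which 7.09% of all epithelial cells had.

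**Figure D3:**
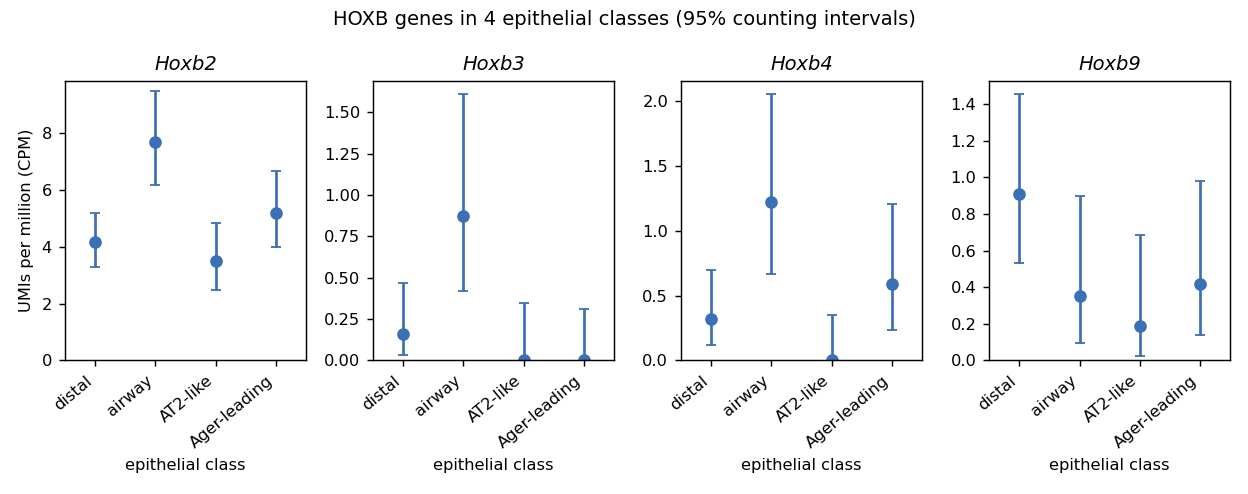
CPM (y axis) of Hoxb2, Hoxb3, Hoxb4 and Hoxb9 in the distal progenitor-like, airway-like, alveolar type 2-like (AT2-like) and Ager-leading classes (x axis), with exact Poisson intervals of 95%. Points for Hoxb2, Hoxb3 and Hoxb4 are highest in the airway class, and the point for Hoxb9 is highest in the distal class with overlapping intervals.

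The neuroendocrine-like cells, a cluster of 36 cells with Meis2 among its leading genes, held 15 HOX UMIs, or 40.9 CPM (22.9 to 67.5), against 11.4 CPM in the airway class (9.50 to 13.5). Hoxb4 had 7 of these UMIs, in 5 cells, at 19.1 CPM (7.67 to 39.3), and Hoxb2 had 6, in 5 cells, at 16.4 CPM (6 to 35.6). Hoxb5 and Hoxb9 had 1 UMI each. Hoxb4 stood 15.6-fold above the airway class (5.32 to 41.3) without entering the comparison for lack of UMIs. Hoxb2 entered, at a log2 ratio of 1.09 against the airway class (-0.40 to 2.27), past the fold and higher as 15.7% of the 9523 genes that entered were. The interval of that ratio includes no difference, and 9 of the 36 cells supplied all 15 UMIs.

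In the Epcam-zero Col1a1-positive cells HOX RNA was plentiful by comparison, at 699 CPM (196 UMIs, 605 to 804), with at least 1 HOX UMI in 33 of 34 cells and a median of 5 UMIs and 4 HOX genes per cell. Thinned to 5000 UMIs, 28 of 31 of these cells (90.3%, 74.2% to 98.0%) held at least 2 different HOX genes, where 4 of 3325 epithelial cells did (0.120%, 0.0328% to 0.308%). Another draw gave 25 of 31 (80.6%) and 3 of 3325 (0.0902%). If each gene were found independently of the others, its single shares would give 85.4% in the first draw and 82.2% in the other for the Col1a1-positive cells. Their shares lay near these values, so they show no joint expression. Sftpc, an epithelial gene, had UMIs in 4 of the same 31 cells (12.9%) and in 72.0% of thinned epithelial cells. The cell with the most HOX UMIs held 18. The mesenchymal-like cluster held 10 further cells outside this class, 7 of them without a Col1a1 UMI and 3 with an Epcam UMI; all 10 had HOX UMIs, at 793 CPM in sum (98 UMIs, 644 to 966).

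Hoxa5 (ENSMUSG00000038253, chr6:52201754-52204587, minus strand), needed for normal trachea and lung formation, was the most abundant HOX gene there. It had 44 UMIs in 24 of the 34 cells, at 157 CPM (114 to 211), and 1 UMI in the whole epithelium, in an alveolar type 2-like cell. The ratio of 8354 to that single UMI had an interval of 1423 to 337361. Hoxb5 (chr11:96303336-96306121, plus strand), known from the mesenchyme around branching airways, had 36 UMIs in 21 cells, at 128 CPM (89.9 to 178). In the epithelium Hoxb5 had 2 UMIs in the airway class, 2 in the alveolar type 2-like class, 1 in the neuroendocrine-like class and none in the distal and Ager-leading classes, a ratio of 1367 over the epithelium as a whole (535 to 4463). Hoxa5 and Hoxb5 were thus nearly restricted to the mesenchymal cells in these UMIs.

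Hoxb2 had 29 UMIs in 16 cells of this class, at 103 CPM (69.3 to 149), 20.2-fold above the epithelium (13.3 to 29.6). Hoxb4 had 17 UMIs in 12 cells, at 60.6 CPM (35.3 to 97.1), 94.9-fold above (49.7 to 175). Hoxb6 had 21 UMIs in 14 cells, at 74.9 CPM (46.4 to 114), against none in the epithelium. With 3 counts over the epithelium as the floor it was at least 1329-fold higher. Of the 5 genes, Hoxb2 was therefore the least unequal between these cells and the epithelium, while Hoxa5, Hoxb5 and Hoxb6 had few or no epithelial UMIs.

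Further members with 5 or more UMIs there were Hoxb3 and Hoxb8 with 9 each, Hoxa2 and Hoxa7 with 8 each and Hoxb7 with 5. Hoxb7 had none in the epithelium and was at least 316-fold higher on the same floor. Hoxc4 had 4 UMIs, Hoxa3 had 3, Hoxa4 had 2 and Hoxc5 had 1. The 25 remaining HOX genes, Hoxb1 and Hoxb9 among them, were at 0, and a count of 0 in a class this small allows up to 10.7 CPM, so the absence of Hoxb9 here is not detectable as a difference from its 0.545 CPM in the epithelium. Genes entered this comparison with 10 UMIs in the Col1a1-positive cells or 10 expected there. The 5 HOX genes that entered, Hoxa5, Hoxb2, Hoxb4, Hoxb5 and Hoxb6, were past the fold and higher, as 20.2% of the 3879 genes that entered were. All 5 entered only through their level in the Col1a1-positive cells, so that count supports nothing.

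Paralog groups 4 to 8 took 75.0% of the HOX UMIs of the Col1a1-positive cells (68.3% to 80.9%) and 13.6% of those of the epithelium (10.3% to 17.4%). Groups 1 to 3 took 25% and 78.7%, respectively. By gene cluster, HOXA took 33.2% of the UMIs of the Col1a1-positive cells (26.6% to 40.2%) against 1.86% in the epithelium (0.752% to 3.8%). Along the gene clusters UMIs of these cells ran from Hoxa2 to Hoxa7, with Hoxa6 at 0, and from Hoxb2 to Hoxb8: Hoxb1, Hoxa9 to Hoxa13, Hoxb9 and Hoxb13 had no UMI in these cells. In the epithelium Hoxb2, Hoxb4 and Hoxb9 had the most UMIs, with Hoxb6 and Hoxb7, which lie between Hoxb4 and Hoxb9, at 0.

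**Figure D4:**
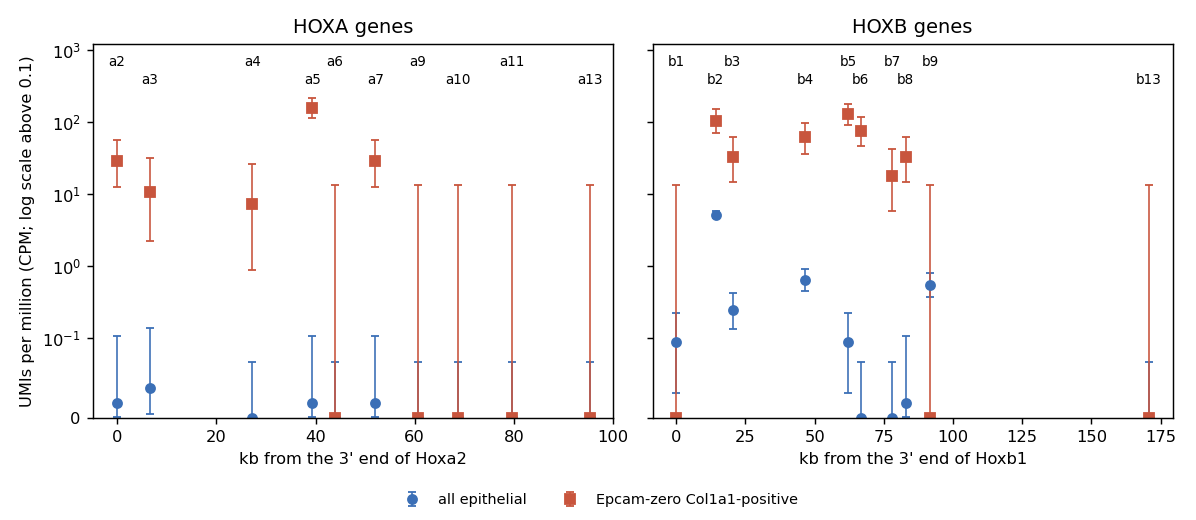
CPM (y axis, logarithmic above 0.1 and linear below) of HOXA and HOXB genes against the distance of each gene's 3′ end from that of Hoxa2 or Hoxb1 (x axis, kb), in all epithelial clusters (circles) and in the Epcam-zero Col1a1-positive cells (squares), with exact Poisson intervals of 95%. Hoxa5 at 157 CPM and Hoxb5 at 128 CPM are the highest squares, and Hoxb2 at 5.13 CPM is the highest circle.

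Some of these counts share bases with other genes. Exons of Hoxb2 and Hoxb3 overlap those of Hoxb3os on the other strand, and exons of Hoxb5 overlap Hoxb5os, in GENCODE M21. Whether counting used strand is not given in the sources used here, so reads of such pairs cannot be told apart. Hoxa2 and Hoxa3 share exon bases on the same strand with Gm28308, and Hoxc5 with Hoxc10, and their counts are uncertain for that reason. Hoxd3 and Hoxd4 share exon bases on the same strand with each other and with Gm28230. The shared bases are 2613 of 4191 in Hoxd3 and 1542 of 2948 in Hoxd4, so their lack of UMIs is uncertain too. Hoxb3os had 321 UMIs, more than any HOX gene, and stood at 9.71 CPM in the airway class (111 UMIs) and 5.08 CPM in the distal class (95 UMIs), a ratio of 0.523 (0.394 to 0.694). In the Col1a1-positive cells Hoxb3os was at 14.3 CPM (4 UMIs) against 5.90 CPM in the epithelium. That ratio of 2.42 had an interval that includes no difference (0.655 to 6.25). The proportion of Hoxb3os to Hoxb2 differed, with 4 UMIs against 29 in those cells and 314 against 273 in the epithelium.

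Other noncoding genes of the clusters divided the classes in their own ways. Hotairm1, an antisense RNA of the HOXA cluster, was at 64.2 CPM in the Col1a1-positive cells (18 UMIs), 2.19 CPM in the airway class (25 UMIs) and 0.160 CPM in the distal class (3 UMIs). Its distal-to-airway ratio was 0.0733 (0.0142 to 0.240). Gm15050, antisense in the same cluster, had 20 UMIs in the Col1a1-positive cells, 10 in the airway class and none in the distal class. Gm53 (chr11:96251105-96264868), a noncoding gene next to Hoxb9, had the opposite order, with 22 UMIs in the distal class (1.18 CPM) and 3 in the airway class (0.262 CPM), a ratio of 4.48 (1.35 to 23.4), which lay between 2.01 and 5.70 over 13 alternatives; its interval excluded 1 in 7 of the 12 that give an interval. Of 17 listed genes inside the clusters other than the HOX genes, 7 had a UMI, and Hotair and Hoxd3os1 had none. These genes were chosen for description after their values were seen.

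Among the cofactors that bind DNA with HOX proteins, Meis1 and Meis2 were far lower in distal than in airway cells. Of 9 TALE cofactors 8 entered and 3 were past the fold, all lower in the distal class, where 17.4% of all genes were. The median log2 ratio of the 8 was -0.26, beside -0.18 for all genes. Meis2 was at 43.6 CPM in the airway class (499 UMIs) and 1.98 CPM in the distal class (37 UMIs), a ratio of 0.0453 (0.0315 to 0.0633), which lay between 0.0140 and 0.0719 over 13 alternatives. Meis1 was at 4.55 against 0.428 CPM, a ratio of 0.0940 (0.0386 to 0.199). Both genes were among those the clusters were built from, so their difference between clusters is a description.

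In the Col1a1-positive cells 4 TALE cofactors entered and all 4 were past the fold and higher, where 20.2% of all genes were. Meis1, Meis2 and Pknox1 entered only through their level in those cells, so that count supports nothing. Meis1 was 57.0-fold above the epithelium (85.6 against 1.5 CPM, 34.5 to 90.8), Pknox1 5.13-fold (2.54 to 9.28), and Meis2 4.53-fold (2.75 to 7.04). The neuroendocrine-like cells held the highest Meis2, at 693 CPM against 43.6 CPM in the airway class, a ratio of 15.9 (13.6 to 18.5). Higher levels of Meis1 and Meis2 thus stood beside higher levels of Hoxb2 and Hoxb4 in the airway, neuroendocrine-like and Col1a1-positive cells than in the distal class. Pbx2, Pbx3, Pbx4, Meis3 and Pknox1 were within the fold between distal and airway cells. Of 81 airway cells with Hoxb2, at a median depth of 15466 UMIs, 36 had a Meis2 UMI, beside 37.2% of the airway class. A link between these genes was not tested.

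Of the 21 genes of the retinoic acid and CDX list 10 entered between distal and airway cells and 4 were past the fold, all lower in the distal class, where 17.4% of all genes were. The median log2 ratio of the 10 was -0.34, beside -0.18 for all genes. Aldh1a1, which makes retinoic acid, was at 3.48 CPM in the distal and 51.1 CPM in the airway class, a ratio of 0.0680 (0.0518 to 0.0880). That ratio lay between 0.0279 and 0.162 over the alternatives. Rarb, a retinoic acid receptor whose own gene responds to retinoic acid, was at 7 against 37.8 CPM, a ratio of 0.185 (0.151 to 0.226). Dhrs3, which turns retinal back to retinol, and Crabp2, which carries retinoic acid in the cell, had ratios of 0.586 (0.460 to 0.745) and 0.637 (0.552 to 0.735). All 4 were among the genes used for clustering.

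Polycomb and Trithorax genes differed little between the distal and airway classes. Of 21 Polycomb genes 20 entered and 3 were past the fold and lower in the distal class, a share near the 17.4% of all genes, with a median log2 ratio of -0.15 beside -0.18 for all genes. These were Phc3 at 0.629 (0.493 to 0.803), Rnf2, which carries the ubiquitin ligase activity of Polycomb complex PRC1, at 0.655 (0.594 to 0.723) and Rbbp7, a histone-binding protein, at 0.664 (0.626 to 0.705); Rbbp7 was among the genes used for clustering. None of these passes a fold of 2. Of 10 Trithorax genes 10 entered and 2 were past the fold and lower, again near the share of all genes, 17.4%. These were the demethylase Kdm6a at 0.565 (0.471 to 0.678) and the methyltransferase Kmt2b at 0.663 (0.538 to 0.817). In the Col1a1-positive cells 3 of the 7 Polycomb genes that entered were past the fold and lower, where 16.7% of all genes were. Eed and Suz12 among them entered only through their level in the epithelium, so that count supports nothing. The histone methyltransferase Ezh2 was at 0.558 of the epithelial level (0.341 to 0.863), and its partners Eed at 0.507 (0.219 to 1) and Suz12 at 0.589 (0.216 to 1.29), both with intervals that reach 1. Of 5 Trithorax genes that entered, Wdr5 was past the fold and higher, at 1.71 (0.933 to 2.88), and Ash2l past it and lower, at 0.641 (0.276 to 1.26), and both intervals include 1. Of all genes, 20.2% were past the fold and higher and 16.7% past it and lower. Wdr5 entered only through its level in the Col1a1-positive cells and Ash2l only through its level in the epithelium. These Trithorax counts therefore support nothing.

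**Figure D5:**
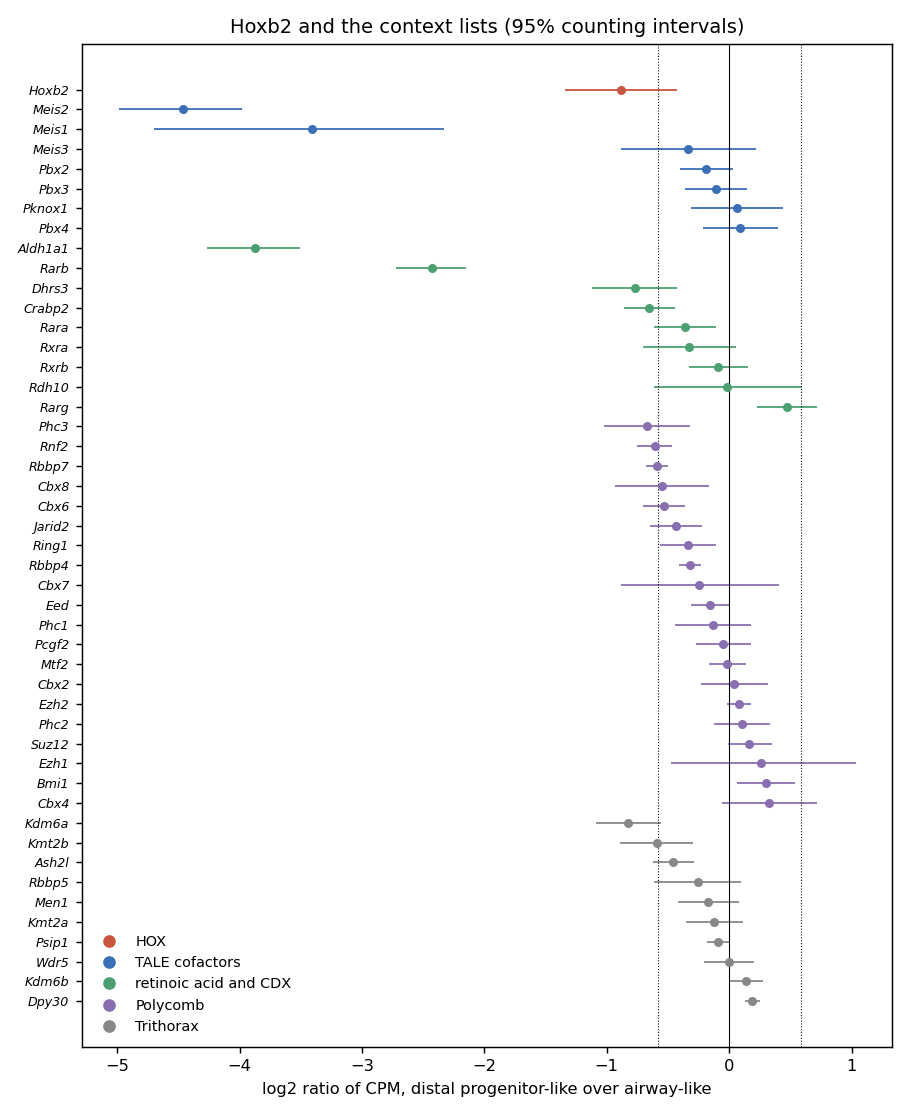
Log2 ratio of CPM in the distal progenitor-like over the airway-like class (x axis) for Hoxb2 and genes of the 4 context lists that entered (rows), with exact conditional intervals of 95% and dotted lines at 1.5-fold. Meis2, Aldh1a1 and Meis1 lie farthest to the left, and no gene of these lists lies beyond the right dotted line.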

How the data were processed

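The deposited matrix of the control library holds whole-number counts of UMIs per gene and barcode made by the authors; its header names software version 3.0.1. The submitters' processing notes name Cell Ranger, Seurat and the build mm10. The gene annotation, the rule for calling cells and the use of strand are not given in the sources used here. Only the barcode and gene lists of the knockout library were used.

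Cells with at least 1000 genes and at most 10% mitochondrial UMIs were kept. Raw UMIs were summed per class and divided by the class's total (CPM). Levels have exact Poisson intervals, shares exact binomial (Clopper-Pearson) intervals and ratios exact conditional intervals, all for counting error. Clusters used scanpy 1.11.5 and leidenalg 0.10.2 on 2000 highly variable genes with UMIs in 10 or more cells, less the HOX and cell-cycle genes, 20 principal components, 20 neighbours and resolution 0.5. A cluster took a name with at least 3 markers at 2-fold, each with 10 or more UMIs, and with no other class ahead among its 10 leading genes. Clusters of at least 50 cells with 3 distal markers at 1.5-fold over the airway cluster joined the distal class, which all its 3 clusters did by that route. That naming rule was set after the clusters were seen. No doublet caller was run; cells with 4 or more Xist UMIs and a Y-linked UMI were counted, and left out in an alternative. Ratios were tested on simulated data before use.

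HOX genes with 50 or more UMIs in all kept cells were named with values, the rest by counts, and by name with 5 or more UMIs in the Epcam-zero Col1a1-positive cells; of each context list at most 4 genes a direction past 1.5-fold were named. The members and lists were chosen with earlier results of these data known. Positions come from GENCODE M21, in which 39 of 40 HOX gene rows were found by identifier; Hoxd4 has a pair of rows, which were summed. Single values of some genes of the lists are not reported here.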

Additional observations from a re-analysis of the deposited data

How the results depend on the processing

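The distal-to-airway ratio of Hoxb2 lay between 0.378 and 0.550 over 13 alternatives; 0.378 came at a clustering resolution of 0.8, the only one outside the interval of the main value. The ratio of the alveolar type 2-like to the airway class lay between 0.334 and 0.465 over 10 alternatives. Between distal and airway classes 1 HOX gene was past the fold; a fold of 2 gave 0 and a minimum of 20 UMIs gave 3. For Hoxb9 the ratio was 0.981 with classes from Sox9 and Sox2 UMIs alone, and resolution 0.8 gave no ratio, since no Hoxb9 UMI lay in the airway class; the cause was not tested. Hoxb3 had no distal UMI with the stricter cell filter or with marker classes, and Hotairm1 none in cells of at most 14000 UMIs. HOX RNA over all kept cells, 12.5 CPM, was 11.3 CPM with at least 2000 genes and at most 5% mitochondrial UMIs, and 19.6 CPM in cells of at most 14000 UMIs. Without thinning, the share of cells with Hoxb2 was 10.3% in the airway and 4.76% in the distal class, with any HOX gene 9.35% in the epithelium, and with at least 2 HOX genes 0.527%. Thinned to 3000 UMIs, that last share was 0.0294%, and 64.7% in the Col1a1-positive cells. The HOX ratio of those cells to the epithelium stayed between 92.8 and 111 over 6 alternatives. A neuroendocrine-like cluster was not named at seed 1, at resolutions of 0.3 and 0.8, with the cell-cycle list kept or with the stricter cell filter. Resolution 0.3 also gave no alveolar type 2-like and no Ager-leading class, and keeping the cell-cycle list gave no Ager-leading class. Over the alternative clusterings the distal class held 1260 to 2560 cells and the airway class 490 to 825. Where named, the alveolar type 2-like class held 320 to 682 cells and the Ager-leading class 377 to 768. Alternatives that left out airway cells with Dcn UMIs, the smallest distal cluster or the richest Col1a1-positive cell, or used the whole mesenchymal-like cluster, were chosen after seeing the data. No paired analysis was possible because each genotype has 1 library and only the control was read. Depth limits most HOX genes: 35 of 39 had fewer than 50 UMIs.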

Other observations

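Genes beside the HOX clusters were read in the same classes. Mtx2, a mitochondrial outer membrane gene beside HOXD, was at 149 CPM in the epithelium and 121 CPM in the Epcam-zero Col1a1-positive cells, although every HOXD gene was at 0. Lnpk, on the other side of HOXD, was at 18.4 and 25 CPM. Evx1 and Evx2, homeobox genes at the 5′ ends of HOXA and HOXD, had no UMI. Skap2, an adaptor protein gene beside HOXA, was at 11 CPM in the airway class and 5.56 CPM in the distal class, a ratio of 0.505 (0.385 to 0.659), and was 4.01-fold higher in the Col1a1-positive cells than in the epithelium (1.72 to 7.98).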
